A study of Mus musculus with 4 samples.

Results

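DNA replication and cell division genes were read as a set of 45 in long-read RNA-seq libraries of mouse neural stem cells. The 45 genes were chosen by symbol. Every isoform row whose Ensembl gene carries one of these symbols in GENCODE M21 was summed into a gene total. All 45 were found among 14949 genes with an isoform row. The set held 22 genes of DNA replication, 5 genes of the G1 phase and 18 genes of mitosis, counted as 221 isoform rows. The study asked whether Tut1, the terminal uridylyltransferase that adds uridines to the end of the splicing RNA U6, regulates mRNA splicing. Primary neural stem cells were cultured from the neocortex of floxed mouse embryos, in which the gene between its loxP sites is deleted once Cre recombinase acts, and Cre was supplied for 3 days as mRNA in lipid nanoparticles (LNP). Each of the 4 genotypes was 1 Nanopore cDNA library, so no difference between them has a replicate check.

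The control library was made from Tut1f/f cells that received empty LNP, and is titled wild type. The other 3 libraries received Cre mRNA in LNP: Tut1f/f cells (Tut1f/f;Cre), Trp53f/f cells (Trp53f/f;Cre) and cells floxed at both genes (Tut1f/f;Trp53f/f;Cre), titled knockouts of Tut1, of p53 and of both. No library of Trp53f/f cells without Cre mRNA was analysed here, so the Trp53f/f;Cre library differs from the control in its floxed gene and in the mRNA it received. Values of the 4 libraries are always given in 1 order: the control first, then Tut1f/f;Cre, then Trp53f/f;Cre, with Tut1f/f;Trp53f/f;Cre last.

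A dividing cell copies its DNA once per cycle. In G1, cyclin D with Cdk4 and cyclin E with Cdk2 start the cycle while Cdc6 and Cdt1 load the Mcm2-7 helicase onto origins, and in S phase Cdc45 and the GINS complex switch that helicase on, polymerases follow the fork around the Pcna clamp, and ribonucleotide reductase supplies the nucleotides. In mitosis cyclin B with Cdk1 triggers entry, the Aurora and Polo kinases build the spindle, and the kinetochore checkpoint holds back the anaphase-promoting complex until every chromosome is attached. Neural stem cells of the embryonic cortex divide rapidly, and p53, the product of Trp53, is known to repress many of these genes through Cdkn1a.

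Genes of both phases are known to carry their own promoter elements. S phase genes are known targets of E2F factors, while late genes are known to be bound at a CHR element beside CCAAT boxes, so both kinds were searched in RefSeq promoter windows (GRCm38.p6, 250 bases before to 50 after each start, both strands). Of the 45 genes 35 matched the promoter table, with 39 windows. The letters TTTNNCGC, one form of an E2F site, stood in the windows of 9 of 17 replication genes (52.9%) and in 1 of 15 mitosis genes (6.67%), against 5.93% of all 27025 genes in the table. The letters TTTGAA, the core of a CHR, stood in 3 of 17 replication genes (17.6%) and in 11 of 15 mitosis genes (73.3%), against 20.2% of all genes. The CCAAT box was found in 10 of 17 replication genes (58.8%), in 13 of 15 mitosis genes (86.7%) and in 41.1% of all genes. The replication genes thus held more of the early letters and the mitosis genes more of the late ones, and no test was made of either share. Birc5, Bub1, Ccnb1 and Mad2l1 were the mitosis genes without TTTGAA in this window, and Cdk1 was the mitosis gene with TTTNNCGC. Promoters of Tpx2, Gins2, Ccnd1, Rfc2, Aurkb, Mcm4, Pole, Ccna2, Ccnd2 and Gins1 were not analysed here. A match of letters is a description and not a binding site.

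Promoter stretches of 150 bases follow for 6 genes, each free of annotated exons and read 5′ to 3′ on the strand of its gene, with capitals on every match to these 3 motifs on either strand. They show the early arrangement (Mcm6, Pola1), a replication gene with only a CCAAT box (Rrm2), the gene with both arrangements (Cdk1), a mitosis gene without TTTGAA (Ccnb1) and the gene with the highest ratios among the 45 (Mki67).
Mcm6 (chr1:128359706-128359855, minus strand): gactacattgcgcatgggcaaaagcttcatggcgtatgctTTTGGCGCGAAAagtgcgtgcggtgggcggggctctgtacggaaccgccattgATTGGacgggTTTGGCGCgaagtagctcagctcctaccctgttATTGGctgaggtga
Rrm2 (chr12:24708091-24708240, plus strand): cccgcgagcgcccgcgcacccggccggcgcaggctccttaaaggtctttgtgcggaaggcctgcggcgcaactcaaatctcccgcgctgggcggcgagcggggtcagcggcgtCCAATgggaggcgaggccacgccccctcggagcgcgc
Pola1 (chrX:93632156-93632305, minus strand): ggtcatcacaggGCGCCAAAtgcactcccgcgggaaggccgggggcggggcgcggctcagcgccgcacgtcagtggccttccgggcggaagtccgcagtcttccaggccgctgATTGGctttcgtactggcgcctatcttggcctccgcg
Cdk1 (chr10:69352939-69353088, minus strand): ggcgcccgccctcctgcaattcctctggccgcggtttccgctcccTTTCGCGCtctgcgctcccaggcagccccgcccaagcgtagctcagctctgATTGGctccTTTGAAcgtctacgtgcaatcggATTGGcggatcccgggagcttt
Ccnb1 (chr13:100786571-100786720, minus strand): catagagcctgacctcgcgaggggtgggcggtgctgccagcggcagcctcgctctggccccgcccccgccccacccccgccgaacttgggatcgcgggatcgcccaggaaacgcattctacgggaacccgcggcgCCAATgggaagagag
Mki67 (chr7:135716380-135716529, minus strand): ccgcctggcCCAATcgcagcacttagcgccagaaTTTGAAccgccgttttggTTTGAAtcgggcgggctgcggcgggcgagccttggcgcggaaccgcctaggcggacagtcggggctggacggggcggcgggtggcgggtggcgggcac

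**Figure D1:**
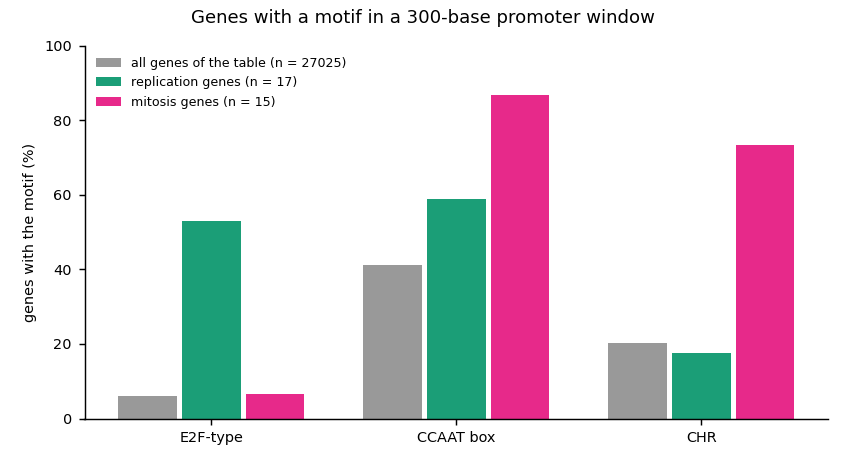
Share of genes (%, vertical axis) with each of 3 motifs in a RefSeq promoter window, for all genes of the table (grey), replication genes (green) and mitosis genes (pink). The E2F-type bar is tallest for replication genes (52.9%) and the CHR bar for mitosis genes (73.3%).

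The libraries held 3936827 to 5125888 reads, of which 2863392 to 4244467 named a gene. Reads without a gene were 17.2% in the control and 27.3% to 30.2% in the Cre libraries, and the ribosomal RNA row CT010467.1 took 18.7% of gene reads in the control and 5.46% to 9.75% in the others. Trp53 had 175, 67, 10 and 19 reads, lowest in both libraries labelled as Trp53-floxed with Cre. Tut1 had 37, 11, 14 and 27 reads. Its log2 ratio to the control was -1.21 (95% counting interval -2.21 to -0.29) in Trp53f/f;Cre, whose label leaves Tut1 intact, and -0.02 (-0.80 to 0.73) in Tut1f/f;Trp53f/f;Cre. The floxed Tut1 allele loses exon 2 alone, and gene totals include transcripts that lack it, so these totals do not check the deletion of Tut1, and genotypes are given as labelled. Whether libraries were exchanged was not tested. Xist had 0, 44, 49 and 0 reads while the Y-linked gene Ddx3y had 85, 0, 0 and 66, so Tut1f/f;Cre and Trp53f/f;Cre also differ from the other 2 libraries in the sex of their cells. All 8 neural stem cell markers were detected, with summed levels of 11528 to 13317 CPM (counts per 1000000 gene reads, scaled by TMM factors). Called at 2-fold with a counting interval that excluded no change, 4 of the 8 were higher than the control in Tut1f/f;Cre (median log2 ratio 0.98), 3 higher and 1 lower in Trp53f/f;Cre (0.85), and 1 higher and 1 lower in Tut1f/f;Trp53f/f;Cre (0.43), with Hes1 at 1.74, 1.61 and 1.60 and Vim at -0.74, -1.03 and -1.02. By the same rule 12.7% of all genes were called higher and 13.3% lower in Tut1f/f;Cre. The shares were 12.5% and 15.3% in Trp53f/f;Cre, and 10.3% and 9.76% in Tut1f/f;Trp53f/f;Cre. Of 4 astrocyte markers 3 were detected and Gfap was at 0, and their summed levels were 49.5, 11.9, 6.89 and 31.5 CPM. All 5 markers of the oligodendrocyte lineage were detected, at 352, 582, 675 and 473 CPM. Of 6 neuronal markers 4 were detected, at 67.7 to 84.7 CPM, with Rbfox3 and Eomes at 0. Microglial markers were detected in 0 of 4 cases, and of 5 endothelial and fibroblast markers only Col1a1 had a read. The part of these library differences in the results below was not tested, and in such bulk RNA fewer dividing cells and less RNA per cell cannot be told apart.

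The median log2 ratio of the 45 genes to the control was -0.37 in Tut1f/f;Cre, with 34 of 45 below 0, -0.24 in Trp53f/f;Cre, with 28 of 45 below 0, and -0.03 in Tut1f/f;Trp53f/f;Cre, with 24 of 45 below 0, beside -0.01, -0.02 and -0.01 over all genes. The 45 genes took 8897, 7896, 8048 and 8072 CPM in sum. A gene was called where its ratio between 2 libraries was at least 2-fold and the 95% counting interval of the ratio excluded no change. Among the 45, 10 were called between Tut1f/f;Cre and the control (22.2%), 1 higher and 9 lower, against 26.0% of the 9882 genes tested (12.7% higher, 13.3% lower). Between Trp53f/f;Cre and the control 11 were called (24.4%), 2 higher and 9 lower, against 27.8% of all genes (12.5% higher, 15.3% lower). Between Tut1f/f;Trp53f/f;Cre and the control 4 were called (8.89%), 2 higher and 2 lower, against 20.1% of all genes (10.3% higher, 9.76% lower). In both directions together, the shares of genes called were near or under the background in all 3 comparisons. By direction, lower calls were above the background in the first 2 comparisons (9 of 45 in each, against 13.3% and 15.3%). Higher calls were under the background in all 3. All 45 passed the filter on low counts. These comparisons share the control library, and the intervals cover counting error only.

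Replication genes had lower medians than mitosis genes as counted here, an order that was not tested and that turned under other settings. The 22 replication genes had a median log2 ratio of -0.43 in Tut1f/f;Cre against the control, with 19 of 22 below 0, and the 18 mitosis genes had -0.32, with 13 of 18 below 0. In Trp53f/f;Cre the replication genes had a median of -0.28, with 17 of 22 below 0, and the mitosis genes -0.08, with 9 of 18 below 0. In Tut1f/f;Trp53f/f;Cre the replication genes had -0.20 and the mitosis genes 0.03. The median of all genes was -0.01, -0.02 and -0.01 in these comparisons. Centred on genes of like transcript length, a setting described with length, the replication medians were -0.47, -0.24 and -0.09 and the mitosis medians -0.26, -0.02 and -0.15, so the order turned in Tut1f/f;Trp53f/f;Cre. With plain Ensembl transcript rows alone the medians in Tut1f/f;Cre were -0.19 and -0.22, so the order turned there too. Summed over genes, replication reads were 2801, 2036, 2183 and 2550 CPM and mitosis reads 3126, 2487, 2950 and 2943 CPM, so both sums were highest in the control.

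**Figure D2:**
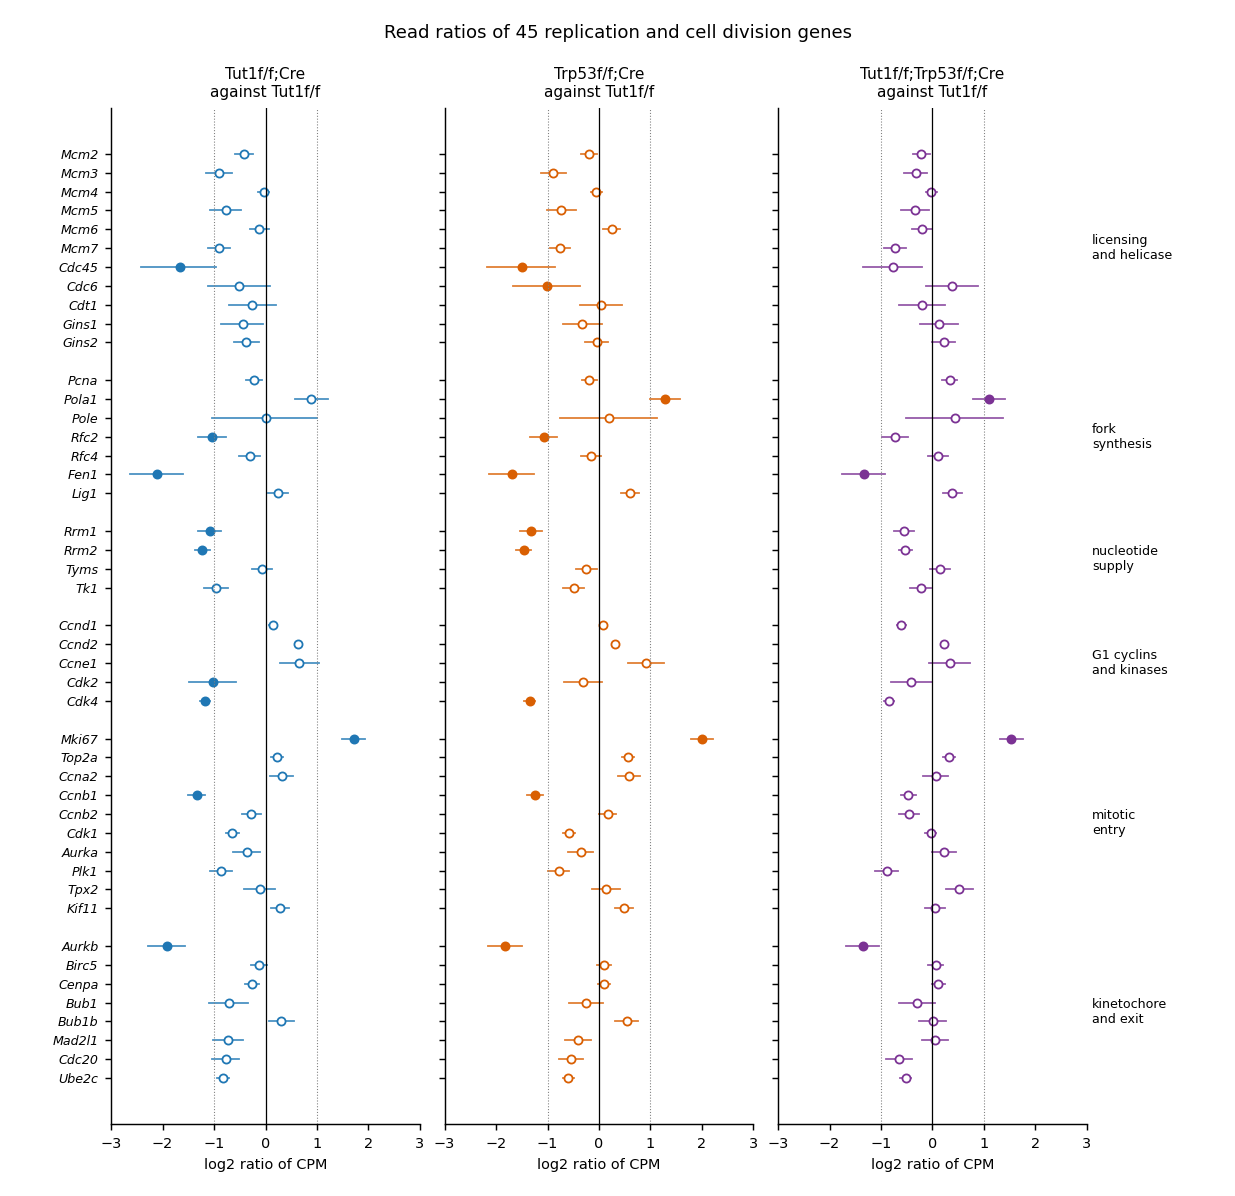
Log2 ratio of CPM (horizontal axis) of each of the 45 genes in the 3 Cre libraries against the control library, with bars for 95% counting intervals, filled points for called genes and dotted lines at 2-fold. Most called genes lie on the left in the first 2 panels, while Mki67 lies farthest right in all 3.

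Among the 11 licensing and helicase genes, none was called higher in the 3 comparisons with the control, and Cdc45 and Cdc6 were called lower. Cdc45 (chr16:18780447-18811987, minus strand, mm10), which joins the helicase as it is switched on, had 87, 21, 27 and 38 reads, or 21.9, 6.93, 7.75 and 12.9 CPM. The control level stood above the others, and the log2 ratios to it were -1.66 (-2.42 to -0.96), -1.50 (-2.18 to -0.86) and -0.76 (-1.35 to -0.20). Cdc6 (chr11:98907801-98923940, plus strand), which loads the helicase onto origins, had 69, 37, 30 and 67 reads, or 17.3, 12.2, 8.61 and 22.7 CPM. Its level was thus lowest in Trp53f/f;Cre, at a log2 ratio of -1.01 (-1.68 to -0.37), and it was called in that comparison with the control only. Mcm4, the helicase subunit with the most reads, had 1789, 1329, 1515 and 1310 reads, or 450, 439, 435 and 444 CPM, the steadiest level of these genes. Mcm3, Mcm5 and Mcm7 had log2 ratios of -0.91, -0.77 and -0.90 in Tut1f/f;Cre and -0.89, -0.73 and -0.75 in Trp53f/f;Cre, short of 2-fold, while Mcm2 and Mcm6 stayed between -0.41 and 0.25 in all 3. Cdt1, the partner of Cdc6, and the GINS subunits Gins1 and Gins2 lay between -0.44 and 0.22.

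The 7 genes of fork synthesis held the lowest ratio of the set, that of Fen1 in Tut1f/f;Cre, and a gene that went the other way. Fen1 (chr19:10199132-10204169, minus strand), the nuclease that trims flaps from lagging strand fragments, had 214, 38, 58 and 63 reads, or 53.8, 12.5, 16.6 and 21.4 CPM. It was 4.29-fold, 3.23-fold and 2.52-fold lower than the control, at log2 ratios of -2.10 (-2.64 to -1.60), -1.69 (-2.14 to -1.27) and -1.33 (-1.76 to -0.92), and was called in all 3 comparisons. Its exons overlap those of Tmem258 on the opposite strand, which had 2524, 2915, 3343 and 2743 reads. Whether counting used strand is not given in the sources used here, so reads in the shared part may be assigned to either gene. How many such reads there were was not measured. Rfc2 (chr5:134581366-134601805, plus strand), a subunit of the clamp loader, had 421, 156, 175 and 189 reads, or 106, 51.5, 50.2 and 64.1 CPM. It was called lower in Tut1f/f;Cre at -1.04 (-1.31 to -0.77) and in Trp53f/f;Cre at -1.08 (-1.34 to -0.82), and stood at -0.72 in Tut1f/f;Trp53f/f;Cre. Counted from plain Ensembl transcript rows alone, its ratios turned to 1.46 and 1.87 in the first 2 comparisons and were not called. Pola1 (chrX:93304767-93632155, minus strand), the catalytic subunit of the polymerase that makes primers with primase, had 141, 199, 300 and 225 reads, or 35.5, 65.7, 86.1 and 76.3 CPM. The control was lowest, with log2 ratios of 0.89 (0.57 to 1.21), 1.28 (0.99 to 1.58) and 1.10 (0.79 to 1.42), called in the last 2. Pola1 lies on the X chromosome, and the part of cell sex in its level was not tested. Pcna, the sliding clamp, had the most reads in this role, 831, 544, 639 and 778, or 209, 180, 183 and 264 CPM, and was not called. Rfc4, another clamp loader subunit, and Lig1, the ligase that joins the fragments, were not called, with log2 ratios between -0.31 and 0.60. Pole, a leading strand polymerase, had 21, 16, 21 and 21 reads and was not called, with log2 ratios of 0.00 (-1.03 to 1.01), 0.19 (-0.75 to 1.14) and 0.43 (-0.51 to 1.38).

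Nucleotide supply had the lowest medians of the 6 roles in the first 2 comparisons, -1.02 and -0.90, against -0.38 in the last. Rrm2 (chr12:24708241-24714146, plus strand), the small subunit of ribonucleotide reductase, had 1552, 504, 494 and 800 reads, or 390, 166, 142 and 271 CPM. The log2 ratios were -1.23 (-1.38 to -1.08), -1.46 (-1.61 to -1.31) and -0.53 (-0.65 to -0.40), so it was called in the first 2. Rrm1 (chr7:102441695-102469771, plus strand), the large subunit, followed the same order, with 667, 239, 234 and 336 reads, or 168, 78.9, 67.2 and 114 CPM. Its log2 ratios were -1.09, -1.32 and -0.56, called in the first 2. Tk1, a thymidine salvage kinase, had ratios of -0.96, -0.49 and -0.23, and Tyms, which makes thymidylate, of -0.06, -0.24 and 0.15, and neither was called.

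The 5 G1 genes divided into kinases and cyclins. Cdk4 (chr10:127063534-127067920, plus strand), the partner of the D cyclins, had 2927, 987, 1011 and 1211 reads, or 736, 326, 290 and 410 CPM. It was called lower in Tut1f/f;Cre at -1.18 (-1.28 to -1.07) and in Trp53f/f;Cre at -1.34 (-1.45 to -1.24), and stood at -0.84 (-0.94 to -0.75) in Tut1f/f;Trp53f/f;Cre. Cdk2 (chr10:128697939-128705031, minus strand), the partner of cyclin E, had 152, 57, 108 and 85 reads, or 38.2, 18.8, 31.0 and 28.8 CPM, and was called in Tut1f/f;Cre alone, at -1.02 (-1.49 to -0.57). No cyclin was called against the control. Ccnd2, a D cyclin and the gene of this role with the most reads, had 5213, 6162, 5683 and 4546 reads, or 1311, 2034, 1631 and 1541 CPM, lowest in the control. Ccnd1, another D cyclin, had 858, 950, 911 and 564 CPM, lowest in Tut1f/f;Trp53f/f;Cre, at a log2 ratio of -0.61. Ccne1, a cyclin E gene, had ratios of 0.66, 0.91 and 0.33.

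Mitotic entry held the highest ratio of the set. Mki67 (chr7:135689784-135716361, minus strand), which encodes the proliferation marker Ki-67 that coats mitotic chromosomes, had 233, 581, 818 and 500 reads, or 58.6, 192, 235 and 169 CPM. It was 3.27-fold, 4.01-fold and 2.89-fold higher than the control, at log2 ratios of 1.71 (1.49 to 1.94), 2.0 (1.79 to 2.22) and 1.53 (1.31 to 1.76), and was called in all 3 comparisons. Centred on genes of like transcript length, its ratios were 0.94, 1.25 and 0.91, called in Trp53f/f;Cre alone. Ccnb1 (chr13:100778650-100786570, minus strand), the cyclin B gene whose product drives entry with Cdk1, went the other way, with 1186, 357, 439 and 637 reads, or 298, 118, 126 and 216 CPM. Its log2 ratios were -1.34 (-1.51 to -1.17), -1.24 (-1.40 to -1.08) and -0.47 (-0.61 to -0.33), called in the first 2. The other cyclin B gene, Ccnb2, was not called, at -0.28, 0.17 and -0.45. Top2a, the topoisomerase that untangles chromosomes, had the most reads in this role, 1224, 1084, 1587 and 1136, or 308, 358, 455 and 385 CPM, lowest in the control. Cdk1 had 413, 265, 276 and 405 CPM, with ratios of -0.64, -0.58 and -0.03. Plk1, the Polo kinase, had ratios of -0.86, -0.78 and -0.89, short of 2-fold in each. Ccna2, Aurka, Tpx2 and the spindle motor Kif11 lay between -0.36 and 0.58, and none of these genes was called.

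At the kinetochore and in mitotic exit, Aurkb alone was called. Aurkb (chr11:69045647-69051664, plus strand), the kinase of the chromosomal passenger complex, had 382, 77, 95 and 111 reads, or 96.0, 25.4, 27.3 and 37.6 CPM. It was 3.78-fold, 3.52-fold and 2.55-fold lower than the control, at log2 ratios of -1.92 (-2.29 to -1.56), -1.82 (-2.16 to -1.49) and -1.35 (-1.67 to -1.04). Birc5, the survivin subunit of the same complex, did not share this, with ratios of -0.13, 0.09 and 0.06. Ube2c, which hands ubiquitin to the anaphase-promoting complex, had the most reads in this role, 1962, 845, 1134 and 1014, or 493, 279, 325 and 344 CPM, and was highest in the control without reaching 2-fold. Cdc20, an activator of that complex, had ratios of -0.77, -0.54 and -0.65. The checkpoint genes Mad2l1, Bub1 and Bub1b and the centromeric histone gene Cenpa lay between -0.73 and 0.54.

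**Figure D3:**
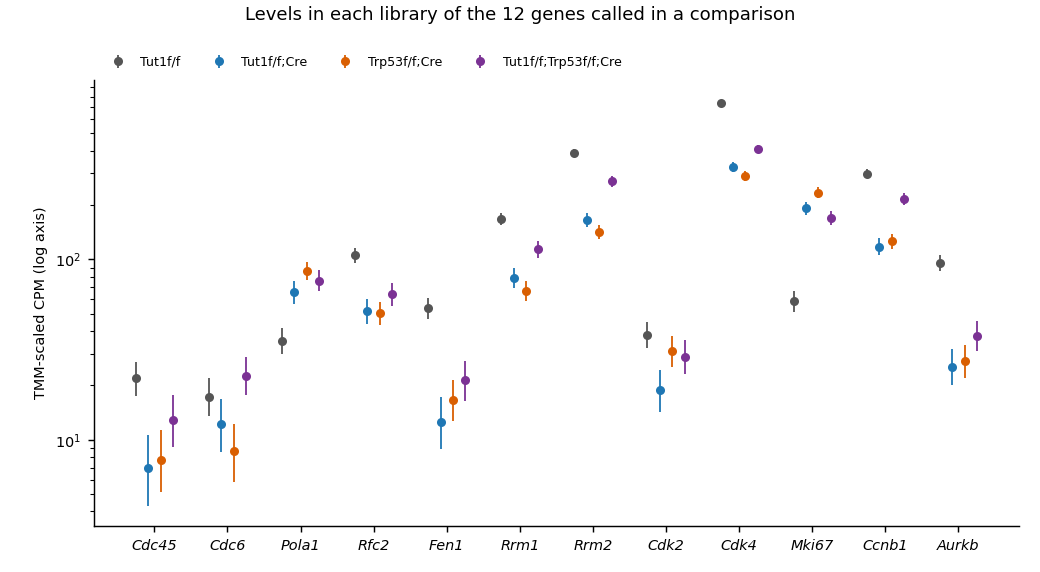
TMM-scaled CPM on a log axis (vertical) of the 12 genes called in at least 1 comparison, 1 point per library with its 95% counting interval. Aurkb and Fen1 are highest and Mki67 and Pola1 lowest in the control library (grey). Tut1f/f;Trp53f/f;Cre (purple) lies nearest the control for all genes shown except Cdk2 and Pola1.

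Calls near 2-fold moved with the scaling. With library totals in place of TMM factors, Rfc2, Rrm1 and Cdk2 were not called in Tut1f/f;Cre (-0.92, -0.96 and -0.90), and Pola1 was called higher there (1.01). In Trp53f/f;Cre, Rfc2 (-0.96) and Cdc6 (-0.90) were not called and Ccne1 was (1.02), and Cdc6 was also short of 2-fold with DESeq2 size factors (-0.99). Cdc6 and Mki67 have no plain Ensembl transcript row, so their calls rest on rows named after reads or variants. The ratio calls of Fen1, Aurkb, Cdc45 and Ccnb1 between 2 libraries held under every scaling and counting alternative run.

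Fitted together, the 3 Cre libraries differed from the control in 7 of the 45 genes (edgeR quasi-likelihood test, false discovery rate (FDR) under 0.05 and at least 2-fold), against 16.3% of all genes (7.94% higher, 8.4% lower). With 1 control library, this fit assumes that the control varies like the others, and Cre mRNA and every other difference of that library cannot be told apart. Mki67 (log2 change 1.76 ± 0.27 SE, FDR 0.00259) and Pola1 (1.10 ± 0.28, FDR 0.0186) rose. This fit was not centred on transcript length, and after centring the ratio of Mki67 to the control was under 2-fold in 2 of the 3 Cre libraries and that of Pola1 in all 3. Aurkb (-1.68 ± 0.26, FDR 0.00269), Fen1 (-1.67 ± 0.30, FDR 0.00435), Cdk4 (-1.11 ± 0.21, FDR 0.00651), Cdc45 (-1.26 ± 0.37, FDR 0.0339) and Rrm2 (-1.02 ± 0.30, FDR 0.0341) fell. Rfc2 (-0.94 ± 0.24, FDR 0.0203), Rrm1 (-0.95 ± 0.28, FDR 0.0335) and Ccnb1 (-0.96 ± 0.30, FDR 0.0432) passed the FDR and were under 2-fold, as were Plk1 (-0.84 ± 0.22, FDR 0.0207), Mcm7 (-0.79 ± 0.22, FDR 0.0273) and Ube2c (-0.64 ± 0.20, FDR 0.0446). At an unadjusted p under 0.05 there were 16 of the 45 genes (35.6%), against 3474 of all 9882 genes (35.2%). With counts scaled by the library total, 4 genes were called (8.89%, against 16.5% of all genes), Pola1, Mki67, Aurkb and Fen1, and 4 were called without the Tut1f/f;Cre library (against 9.54%). Cdc45 was not called with library totals (FDR 0.0521), without Tut1f/f;Cre (FDR 0.116) or with DESeq2 (FDR 0.135), which called 6 of the 45 (13.3%, against 9.92% of all genes). Pola1 was not called without Trp53f/f;Cre (0.99) or without Tut1f/f;Cre (FDR 0.0564), and Rrm2 was not called without Trp53f/f;Cre (-0.85) or without Tut1f/f;Cre (FDR 0.104).

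Labelled Tut1 status and labelled Trp53 status gave no call among the 45 genes. In the additive edgeR fit on all 4 libraries, which leaves 1 residual degree of freedom, Tut1 status called 0 of 45 genes (0 at an unadjusted p under 0.05), against 0 of 9882 genes (187 unadjusted), and DESeq2 called 0 (70 unadjusted, 0 of them among the 45). Trp53 status called 0 of the 45 (0 unadjusted), against 0.0101% of all genes, and DESeq2 called 0 of the 45. The standard errors of the change with Tut1 status had a median of 0.49 over the 45 genes on the log2 scale, from 0.36 for Ccnd2 to 0.75 for Pole. The residual of this additive fit takes up the split in cell sex and part of any difference shared by the Cre libraries. No conclusion about genotype is therefore drawn from the absence of calls.

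Between the 2 libraries labelled as lacking Trp53, 1 of the 45 genes was called (2.22%), against 7.24% of all genes (4.68% higher, 2.56% lower). Cdc6 was higher in Tut1f/f;Trp53f/f;Cre than in Trp53f/f;Cre by 1.40 on the log2 scale (0.76 to 2.07), with 22.7 against 8.61 CPM. Rrm2 at 0.94 (0.77 to 1.10), Ccnb1 at 0.78 (0.60 to 0.96) and Rrm1 at 0.76 (0.52 to 1.01) were next, with intervals above 0 and under 2-fold. Ccnd1 was lowest at -0.69 (-0.78 to -0.61). The 22 replication genes had a median of 0.31, with 17 above 0, the 4 nucleotide supply genes 0.57, with 4 above 0, and the 18 mitosis genes -0.04, with 8 above 0. The median of all genes was 0.03. These 2 libraries also differ in Xist and Ddx3y reads.

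Between Tut1f/f;Trp53f/f;Cre and Tut1f/f;Cre 0 of the 45 genes were called, against 4.49% of all genes (2.23% higher, 2.27% lower). At a threshold of 1.5-fold 14 were called (31.1%), 13 higher and 1 lower, against 11.9% of all genes. The sign was widely shared. Of the 22 replication genes 21 were above 0, with a median of 0.42, and of the 18 mitosis genes 12 were, with a median of 0.25, beside a median of all genes of 0.03. Cdc45 and Cdc6 were highest, at 0.89 each, the latter with an interval of 0.29 to 1.51, followed by Ccnb1 at 0.87 (0.68 to 1.06). Mad2l1 at 0.78, Fen1 at 0.77, Tk1 at 0.74 and Rrm2 at 0.70 (0.54 to 0.87) were of similar size. Ccnd1 was again lowest, at -0.75 (-0.84 to -0.67). This comparison and the one with Trp53f/f;Cre share the Tut1f/f;Trp53f/f;Cre library.

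Other genes of the cycle, from a list of 104 of which 101 were tested, reached lower ratios than the 45. Of 34 other replication genes tested, 1 was called higher and 5 lower in Tut1f/f;Cre, 2 higher and 4 lower in Trp53f/f;Cre, and 1 higher and 4 lower in Tut1f/f;Trp53f/f;Cre. These are 17.6%, 17.6% and 14.7% of the list, against 26.0%, 27.8% and 20.1% of all genes. Of 45 other mitosis genes, 4 were higher and 12 lower, 6 higher and 9 lower, and 5 higher and 5 lower, or 35.6%, 33.3% and 22.2%. The medians of the replication list were -0.43, -0.28 and -0.03, and those of the mitosis list -0.26, 0.04 and -0.07. Of 7 other G1 genes tested, 2 were higher and 2 lower, 3 higher and 2 lower, and 1 higher and 1 lower, or 57.1%, 71.4% and 28.6%.

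Of these genes, the 10 with the largest ratios among those called in 1 direction in both Tut1f/f;Cre and Trp53f/f;Cre are described, and both comparisons share the control. Of the list 21.8% met that condition, against 19.9% of all genes. Ccnd3, the last D cyclin, had 108, 10, 14 and 13 reads, at log2 ratios of -3.04, -2.76 and -2.62 to the control. Uhrf1, which recruits the maintenance DNA methyltransferase to the fork, had 220, 21, 33 and 66 reads, at -3.0, -2.55 and -1.31. Ube2s, the enzyme that extends ubiquitin chains for the anaphase-promoting complex, had 94, 10, 16 and 10 reads, at -2.84, -2.36 and -2.80. All 3 genes were highest in the control by more than 2-fold. Cdc25c, the phosphatase that activates Cdk1, had 191, 31, 34 and 54 reads, and Ccng1, a p53 target, had 297, 62, 28 and 46. Rpa1, which binds single-stranded DNA, had 128, 24, 29 and 33 reads, and Racgap1, needed for cytokinesis, had 238, 50, 66 and 63. These 4 genes were called lower in every Cre library. Cdc7, the kinase that fires origins, had 49, 8, 12 and 23 reads, and Ect2, which starts the cleavage furrow, had 118, 21, 32 and 48, and neither was called in Tut1f/f;Trp53f/f;Cre. Knl1, a kinetochore scaffold, was higher, with 33, 62, 126 and 100 reads and ratios of 1.30, 2.12 and 2.03.

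Of the other cycle genes, 6 were called between Tut1f/f;Trp53f/f;Cre and Trp53f/f;Cre, or 5.94%, against 7.24% of all genes. Prim2, the primase subunit that works with Pola1, had 115, 47, 37 and 80 reads, and was higher by 1.35. Uhrf1 was higher by 1.24, Skp2, a ubiquitin ligase subunit with 114, 42, 42 and 82 reads, by 1.21, and Cdc7 by 1.18. E2f1, the S phase transcription factor, had 33, 51, 79 and 29 reads and a log2 ratio of -1.21, and Gadd45a, a p53 target, had 18, 21, 32 and 13 reads and a ratio of -1.06. Cdkn1a, the p53-driven inhibitor of cyclin-dependent kinases, had 744, 649, 171 and 221 reads. Its ratios to the control were 0.20, -1.93 and -1.32, so it was low in both libraries labelled as lacking Trp53. Of 15 brakes of the cycle including Cdkn1a, Ccng1 and Gadd45a, 1 was higher and 2 lower, 2 higher and 3 lower, and 0 higher and 2 lower in the 3 comparisons with the control. These are 20%, 33.3% and 13.3%, against 26.0%, 27.8% and 20.1% of all genes.

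Ratios varied with transcript length, in the 45 genes as in all genes. Length was that of the longest principal coding transcript in GENCODE M21. The 11 genes under 2000 bases had medians of -0.36, -0.32 and 0.06 in the 3 comparisons with the control, and all genes of that class -0.20, -0.19 and -0.09. The 24 genes of 2000 to 4000 bases had -0.59, -0.27 and -0.31, and all genes -0.14, -0.15 and -0.16. The 10 genes over 4000 bases had 0.11, 0.25 and 0.28, against 0.42, 0.40 and 0.28 for all genes. Over the 45 genes, which share libraries and depth, the Spearman correlation of ratio and length was 0.36, 0.30 and 0.28, and over 9876 genes it was 0.27, 0.25 and 0.22, given as descriptions. Mki67, with 10061 bases the longest of the set, had the highest ratio. Centred on genes of its length, Pola1 stood at 0.51, 0.93 and 0.86 and was not called. Cdk4, Cdk2 and Rrm2 were then not called in Tut1f/f;Cre, nor Cdk4 and Cdc6 in Trp53f/f;Cre, while Ccne1 was called higher (1.01 and 1.26) and Mad2l1 lower (-1.50 and -1.16) in both. Aurkb and Fen1 remained called lower in all 3 comparisons after centring. Centring was chosen after the data had been seen, and the part of length in the other results was not tested.

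**Figure D4:**
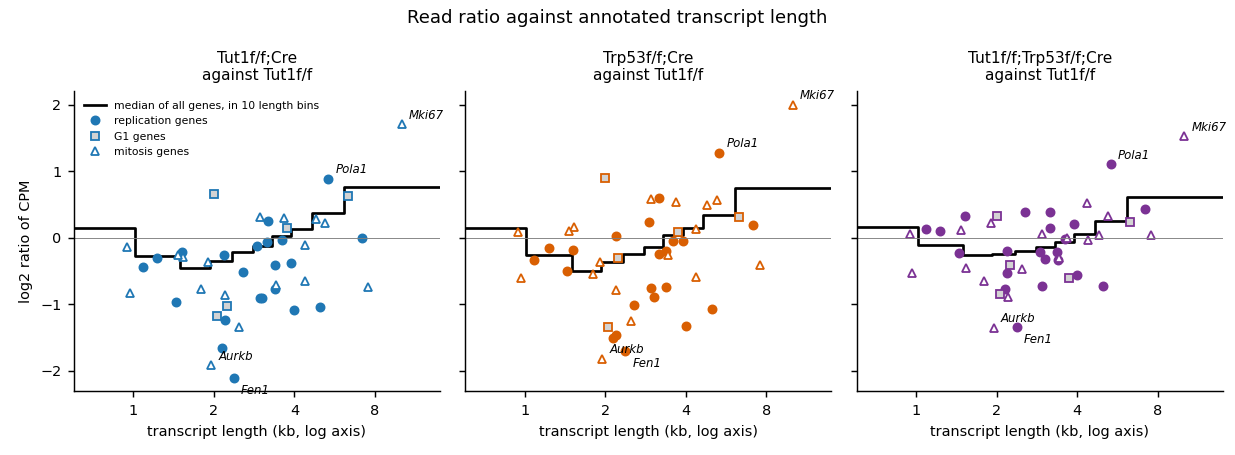
Log2 ratio of CPM (vertical axis) of the 45 genes against transcript length in kb (log axis) in the 3 Cre libraries against the control, with circles for replication, squares for G1 and triangles for mitosis genes and a line for the median of all genes in each of 10 length bins. Mki67 and Pola1 lie at the long end, where the line is above 0, while Aurkb and Fen1 lie below the line in all 3 panels.

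Isoform use within the 45 genes was compared as shares of each gene's reads by Fisher's exact test, 2-sided, which compares libraries and not conditions. An isoform was called at an FDR under 0.05, adjusted over all isoforms tested, and a share that differed by 10 percentage points or more. In Tut1f/f;Cre against the control 6 of 148 isoforms were called (4.05%), against 9.35% of all isoforms, in Trp53f/f;Cre 7 of 155 (4.52%) against 9.9%, and in Tut1f/f;Trp53f/f;Cre 6 of 147 (4.08%) against 6.96%. Between Tut1f/f;Trp53f/f;Cre and Trp53f/f;Cre 4 of 140 were called (2.86%), against 1.4%, and between Tut1f/f;Trp53f/f;Cre and Tut1f/f;Cre 0 of 135, against 0.163%. The share called was under the background in the comparisons with the control, and the 11 isoforms called came from 7 genes.

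An isoform of Aurkb with a retained intron took a larger share in the Cre libraries. This annotated isoform, ENSMUST00000149018, had 10 of 382, 12 of 77, 23 of 95 and 20 of 111 reads of the gene, or 2.62%, 15.6%, 24.2% and 18.0%. The control share was lowest, and the exact test gave FDR of 0.000677, 7.46e-09 and 5.56e-06 for the 3 Cre libraries. Reads of this isoform themselves numbered between 10 and 23, and the main coding isoform ENSMUST00000021277 took 79.8%, 66.2%, 63.2% and 68.5% of the gene, called in Trp53f/f;Cre (FDR 0.0101, exact test). Over all genes without the ribosomal RNA row, isoforms annotated with a retained intron took 1.14%, 1.71%, 1.59% and 1.60% of reads, also lowest in the control. Over the 45 genes such isoforms took 0.718%, 0.811%, 0.956% and 1.08%. The isoform ends within the retained intron, of which it holds 261 bases (chr11:69050477-69050737). The end of the exon and the start of the intron are printed because this junction separates both isoforms, with the intron in capitals.
Aurkb (chr11:69050457-69050536, plus strand): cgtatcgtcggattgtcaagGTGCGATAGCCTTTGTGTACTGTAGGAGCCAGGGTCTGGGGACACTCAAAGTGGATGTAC

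Lig1 changed between isoforms that differ by little sequence. ENSMUST00000156525, annotated as a processed transcript, took 39.5%, 26.5%, 32.1% and 19.8% of Lig1 reads (185 of 468, 112 of 423, 200 of 623 and 90 of 455). The share was highest in the control and lowest in Tut1f/f;Trp53f/f;Cre, with an FDR by the exact test of 0.000693 for Tut1f/f;Cre and 5.52e-09 for Tut1f/f;Trp53f/f;Cre against the control, and of 0.000899 between Tut1f/f;Trp53f/f;Cre and Trp53f/f;Cre. The coding isoform ENSMUST00000098814 took 54.9%, 63.6%, 58.3% and 69.2%, the reverse order. Within the gene, the models differ by 1 base at chr7:13305925, in a run of 5 C, beside 39 bases at the start and 1 at the end. That base, absent from ENSMUST00000098814, is capitalised in the stretch around it, printed because reads are told apart by so little there.
Lig1 (chr7:13305910-13305940, plus strand): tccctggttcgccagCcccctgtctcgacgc

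Mki67 was counted as 3 isoforms named after reads, without an annotated model. The most-read took 198 of 233, 387 of 581, 586 of 818 and 292 of 500 reads, or 85.0%, 66.6%, 71.6% and 58.4%. The second took 13.7%, 31.3%, 26.8% and 39.8%, lowest in the control, with FDR of 4.1e-06, 0.00046 and 3.7e-11 by the exact test in the 3 comparisons and of 0.000222 between Tut1f/f;Trp53f/f;Cre and Trp53f/f;Cre. Birc5 ENSMUST00000093906 took 79.0%, 67.9%, 72.6% and 69.9% of its gene, called in Tut1f/f;Cre (FDR 6.95e-05 by the exact test). Cdk2 ENSMUST00000026416 took 23.0%, 7.02%, 9.26% and 12.9%, called in Trp53f/f;Cre (FDR 0.0310, exact test). Mad2l1 ENSMUST00000101343 took 22.3%, 27.1%, 25.0% and 34.9%, called in Tut1f/f;Trp53f/f;Cre (FDR 0.0148, exact test). In Mcm5 the isoform ENSMUST00000164309 took 78.7%, 89.7%, 88.8% and 81.1% and ENSMUST00000212426 took 15.4%, 6.62%, 4.97% and 11.7%, so both stood nearest the control in Tut1f/f;Trp53f/f;Cre.

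**Figure D5:**
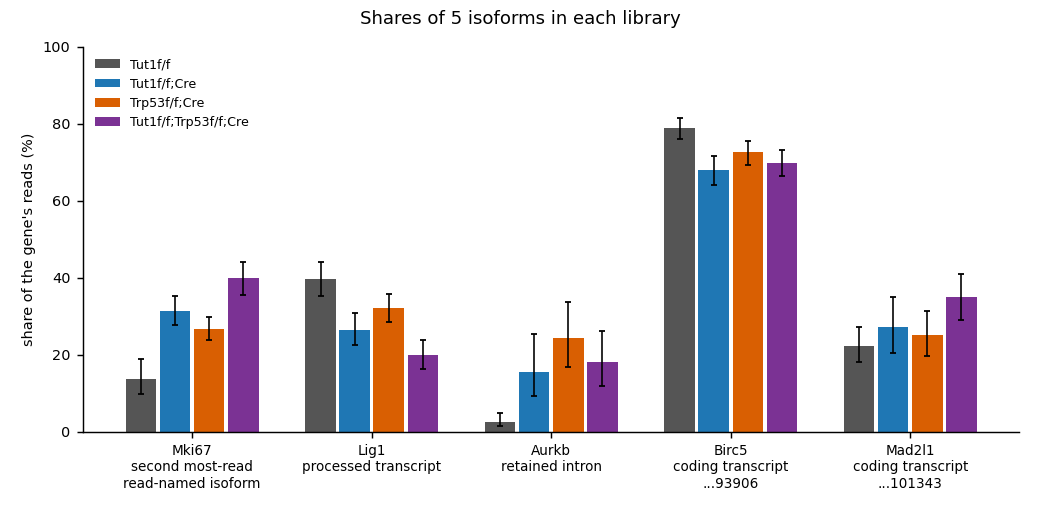
Share of a gene's reads (%, vertical axis) taken by 1 isoform each of Mki67, Lig1, Aurkb, Birc5 and Mad2l1 in the 4 libraries, with bars for 95% Wilson intervals of counting error. The Aurkb retained intron rises from 2.62% in the control to between 15.6% and 24.2% in the Cre libraries, while the Lig1 processed transcript falls from 39.5% to 19.8% in Tut1f/f;Trp53f/f;Cre.

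Overlapping genes and copies limit single values. Exons of 18 of the 45 genes overlap another annotated gene, 17 of them on the opposite strand, among them Cdk4 with Tspan31 (479, 207, 225 and 256 reads) and Cdc45 with Ufd1 (189, 92, 114 and 140 reads). Pseudogenes named after 4 of the genes are annotated, and 2 of them had reads, Pcna-ps2 with 87, 65, 105 and 52 and Ccnb2-ps with 9, 6, 6 and 7.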

How the data were processed

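RNA was extracted with Trizol per the labels, and libraries were prepared with a Nanopore cDNA-PCR kit. The authors deposited a table of raw read counts per isoform for the 4 libraries. The submitters' processing notes name mm10. For long reads of dissected pallium the study's methods name minimap2 and FLAIR. The aligner and isoform caller of this table are not given in the sources used here. Of 255164 rows, 46637 named a gene, and rows without a gene (17.2% to 30.2% of reads) were left out of library sizes and tests.

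The 45 genes and all lists were chosen with earlier results of these data known. Isoform counts were summed per gene with Python 3.11.15 (pandas 2.3.3, numpy 2.4.6, scipy 1.17.1) and scaled to CPM with TMM factors from edgeR 4.0.16 in R 4.3.3. The 9882 genes kept by filterByExpr were tested. Medians used a pseudocount of 0.5 CPM, and ratios had exact (Clopper-Pearson) 95% intervals, which depend on the reads of each gene: those of Pole are widest. The edgeR quasi-likelihood fits had 1 residual degree of freedom for Tut1 and Trp53 status and 2 for Cre mRNA, with Benjamini-Hochberg adjustment, and DESeq2 1.42.0 was the alternative. Isoforms with at least 10 reads, within genes of 20 reads or more per library, were compared by Fisher's exact test. Fits were run on simulated counts with 8-fold changes in 200 of 9882 genes. Of these changes 88.0% were recovered for Tut1 status, 85.5% for Trp53 status and 97.5% for Cre mRNA. Smaller changes and differences in cell sex were not simulated.

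Reads in each library were given for genes called in any comparison and for the gene of each role with the most reads. Of the other cycle genes, those called in both Tut1f/f;Cre and Trp53f/f;Cre in 1 direction with the largest mean ratio (at most 10), those called between the libraries labelled as lacking Trp53, and Cdkn1a were named. Called isoforms were named. Values of further genes were chosen after they were seen. Figures were drawn with matplotlib 3.10.9.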

Additional observations from a re-analysis of the deposited data

Results flagged for a closer look

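Reads that name no gene but lie inside the loci of the 45 genes were outside every comparison, and stood above the control library in each Cre library. Over 302 such rows they came to 851 CPM in Tut1f/f;Cre (95% counting interval 818 to 884), 962 in Trp53f/f;Cre (930 to 995) and 904 in Tut1f/f;Trp53f/f;Cre (870 to 939), against 341 (323 to 360) in the control. They equalled 3.84% of the reads counted for the 45 genes in the control and 10.8%, 11.96% and 11.2% in the Cre libraries. Reads without a gene over the whole table were 221621, 424210, 401110 and 363805 CPM, so the control was lowest there too. Mki67 held the most, with 487, 984, 1345 and 1057 reads. Pola1 had 68, 254, 331 and 233, and Ccnd2 77, 254, 247 and 183.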

How the results depend on the processing

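No paired analysis was possible because each genotype was 1 library. With the fold threshold at 1.5, the genes called among the 45 against the control rose to 23 in Tut1f/f;Cre, 18 in Trp53f/f;Cre and 11 with both genes floxed, and to 7 and 14 in Tut1f/f;Trp53f/f;Cre against Trp53f/f;Cre and against Tut1f/f;Cre, by construction. Of all genes, that threshold called 42.2%, 44.2%, 35.0%, 18.3% and 11.9%, and of the 45 genes 51.1%, 40.0%, 24.4%, 15.6% and 31.1%. In the last of these comparisons 13 were higher and 1 lower. With rows of annotated transcripts alone, 5 were called in Tut1f/f;Cre (11.1%, against 19.5% of all genes) and 0 between Tut1f/f;Trp53f/f;Cre and Trp53f/f;Cre (against 5.68%). In the latter comparison 2 isoforms of the 45 genes were called with those rows, against 187 of 5699 isoforms over all genes. With ratios centred on length, an alternative chosen after seeing the data, 2 of the 45 genes were called in Tut1f/f;Trp53f/f;Cre (4.44%, against 17.4%). Leaving out 1 library, edgeR called 0 to 5 of the 45 for Tut1 status, 0 to 4 for Trp53 status and 4 to 10 for Cre mRNA. The 5 came without Trp53f/f;Cre and the 4 for Trp53 status without Tut1f/f;Cre, where the labelled status and Cre mRNA cannot be told apart and the fit is that for Cre mRNA. For Cre mRNA, 4 were called without Tut1f/f;Cre, 5 without Trp53f/f;Cre and 10 without Tut1f/f;Trp53f/f;Cre (8.89%, 11.1% and 22.2%, against 9.54%, 18.0% and 21.9% of all genes), and 4 with library totals in place of TMM, where the median change of all genes moved from -0.01 to 0.12 on the log2 scale. At 20 percentage points, 0 isoforms of the 45 genes were called in Tut1f/f;Cre, 1 in Trp53f/f;Cre and 2 in Tut1f/f;Trp53f/f;Cre against the control. Between Tut1f/f;Trp53f/f;Cre and Trp53f/f;Cre 0 were called, and counts fall at a higher threshold by construction. Over all genes, that threshold called 870 of 17089, 949 of 17268, 606 of 17578 and 88 of 16176 isoforms in these comparisons. The other 55 alternative counts stayed within 1.5 times the value reported. Against the control, the replication median ran from -0.47 to -0.19 in Tut1f/f;Cre, from -0.28 to -0.14 in Trp53f/f;Cre and from -0.22 to -0.06 (library totals) in Tut1f/f;Trp53f/f;Cre, and the mitosis median from -0.32 to -0.20, -0.08 to 0.04 and -0.15 to 0.16. Near 0, the mitosis median changed sign in Trp53f/f;Cre with library totals (0.04) and in Tut1f/f;Trp53f/f;Cre with length centring (-0.15). Except for thresholds, the cause was not tested.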
